A study of Chlamydomonas reinhardtii with 25 samples.

Results

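The 200 genes described here were those of Chlamydomonas reinhardtii, a unicellular green alga, whose transcripts were higher than in the control after every one of 4 exposures to rare earth elements. They were picked from 19526 annotated transcripts by their group means, with levels in CPM, the counts of a gene in every 1000000 counts of its library after scaling. Of these transcripts, 7985 reached a mean of at least 5 CPM in some group. For each of them D was taken, the log2 of an exposure's mean plus 0.5 CPM minus the same in the control, and the 200 with the largest smallest D over the 4 exposures were kept. All 200 were among the 12796 transcripts with enough counts to be tested. In the deposited counts 1502 gene IDs stood on more than 1 line. Each line was ranked and tested by itself and is called a gene here. Whether other lines with the ID of a member were also raised is not given here. Cells of the wild-type strain CC-125 were exposed for 2 h in a medium of pH 7.0 made of NaHEPES (10.0 mM) and calcium nitrate (10.0 µM), the same for all groups. The control had no added rare earth element, 3 groups received 0.5 µM of cerium (Ce), thulium (Tm) or yttrium (Y), and the Mix group received the 3 metals in equal molar amounts, at a stated 0.5 µM that may be their sum or that of every single one. Each group held 5 libraries, 25 in all, which nothing in the labels ties to separate cultures, so the p-values rest on a spread that may be technical.

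Rare earth elements are mostly found as trivalent ions of similar chemistry, whose radius shrinks from the light ones such as cerium to the heavy ones such as thulium. Yttrium has a radius close to those of the heavy lanthanides and is usually grouped with them. In many organisms such ions can bind at sites that normally hold calcium and block calcium channels, and cells that meet a metal commonly raise some of the same transcripts whichever metal it is. The deposited table gives gene IDs without names, and the RefSeq gene table of assembly Chlamydomonas_reinhardtii_v5.5 matched 155 of the 200 IDs but gives locus tags in place of symbols. No function or sequence is therefore attached to a member, and the strain was not checked against marker genes.

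In the control most of the 200 genes were weakly expressed. Their control means ran from 0.122 to 133 CPM with a median of 3.31, and 30 genes were under 1 CPM, 122 between 1 and 10 CPM and 48 over 10 CPM. The median control level of all tested transcripts was 4.74 CPM. After exposure the median level of the 200 was 32.1 CPM in Y, 23.0 in Ce, 22.9 in Tm and 19.6 in Mix, and 36 genes had a mean over the exposed libraries of at least 100 CPM. Median D was 2.89 in Y, 2.36 in Tm, 2.29 in Ce and 2.14 in Mix, against medians of 0.00, -0.06, 0.20 and -0.07 over all tested transcripts. In the edgeR fit described further on, each exposure was called higher than the control for all 200, against 45.4% of tested transcripts in Ce, 36.1% in Y, 32.3% in Tm and 31.1% in Mix. These contrasts chose the genes, so the values describe the choice and nothing is read from them. In bulk RNA, more cells with a transcript and more transcript per cell cannot be told apart.

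Of the 7985 transcripts at 5 CPM or more, 2677 had a D over 0 in all 4 exposures and 658 a D of at least 1. Among the 200, 83 had a D of at least 2 in every exposure and 8 a D of at least 3. The limit fell in a dense part of the ranking. The last genes inside it were Cre12g5345001, Cre03g175500 and Cre13g570150, with smallest D values of 1.672, 1.67 and 1.67, and the first outside were Cre06g272900, Cre10g446000 and Cre04g221350 with 1.667, 1.665 and 1.661. The genes near the limit are thus hardly distinct from those that follow. The limit was reached through different exposures. Cre12g5345001 had its smallest D in Mix with 3.10 in Ce, Cre03g175500 had it in Ce, and Cre13g570150 had it in Y.

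In 199 of the 200 genes the lowest of the 20 exposed libraries lay above the highest control library, as it did in 10.7% of all tested transcripts. The rule used these same libraries, and nothing is read from this count. The exception was Cre12g556250, where control library 1 was higher than Mix library 4. Its control libraries 1 to 5 held 24.5, 9.04, 6.11, 3.71 and 10.4 CPM, and its Mix libraries 54.7, 38.6, 33.1, 21.2 and 34.5 CPM. In both groups library 1 was the highest and library 4 the lowest.

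**Figure D1:**
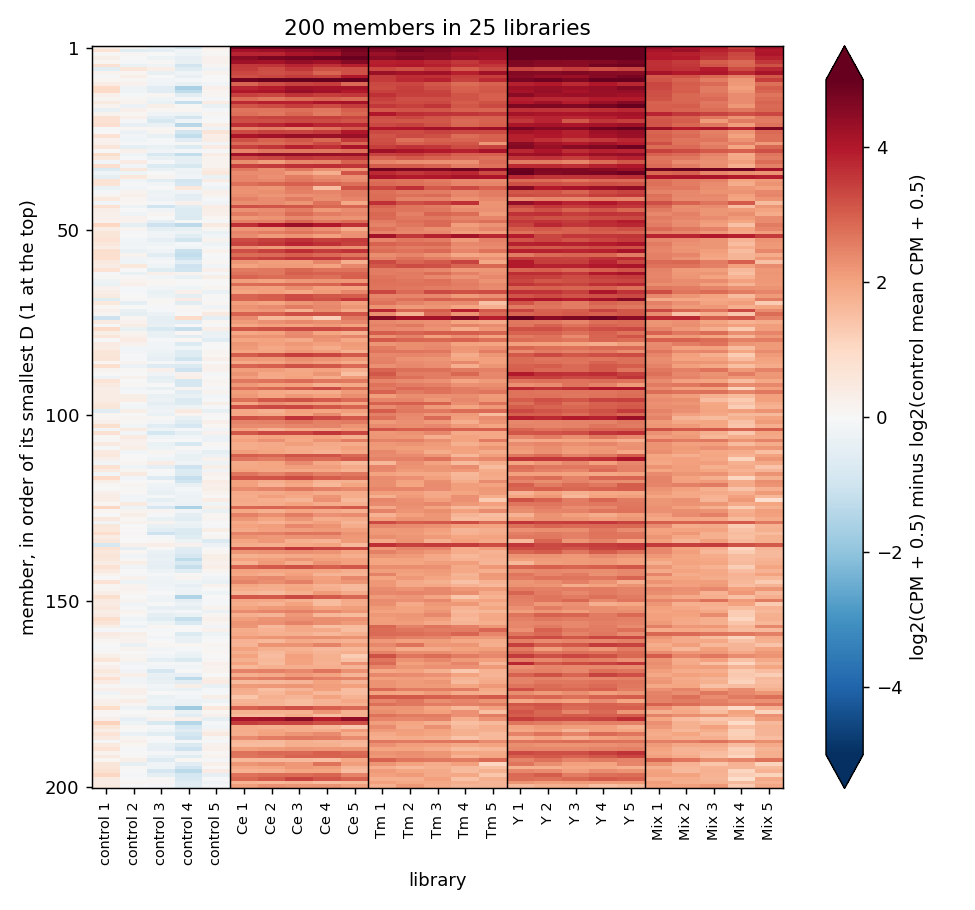
Each row is 1 of the 200 genes in order of its smallest D and each column 1 of the 25 libraries; colour gives log2(CPM + 0.5) minus the log2 of the gene's control mean plus 0.5, with values beyond 5 shown in the end colour. The Y columns are the highest, with a median D of 2.89, and control library 4 is the lowest of the controls.

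Total counts per library ran from 12920957 in Tm library 2 to 28974088 in control library 2. The scaling factors (TMM, a trimmed mean over genes that corrects for a few abundant ones) were 1.38 to 1.46 in the Ce libraries, 0.86 to 0.99 in the other exposures and 0.71 to 1.14 in the controls. The control libraries stood apart from each other in these genes. Control library 1 was the highest of the 5 controls in 126 of the 200 genes, against 34.9% of all tested transcripts, and control library 4 the lowest in 130, against 31.1%. The median log2 difference of the 200 genes from their control mean was 0.35 in control library 1 and -0.41 in control library 4. These libraries also had the highest and the lowest scaling factor of the controls, 1.141 and 0.713, and the part of the factors in this spread was not tested. Without control library 1 the rule kept 180 of the 200 genes, and without control library 4 it kept 187.

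The 200 genes together held 2063 ± 473 CPM in the control (SD, n = 5), 19410 ± 878 in Y, 14633 ± 695 in Ce, 13233 ± 1073 in Tm and 11532 ± 1541 in Mix, by CPM not corrected for transcript length. On this scale the 5 Y libraries were above all the other exposed libraries. By library totals alone the Ce libraries ran from 19408 to 21687 CPM and those of Y from 16943 to 20160, so that Ce and Y overlapped and Ce reached higher. In the scaled values the lowest library of any exposure was Mix library 4 with 9169 CPM. Within a group the genes spread most in the control, where the median SD of log2(CPM + 0.5) over the 200 genes was 0.37, against 0.28 in Mix and 0.13 to 0.18 in Ce, Tm and Y. Over all tested transcripts these medians were 0.35, 0.23 and 0.15 to 0.20.

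**Figure D2:**
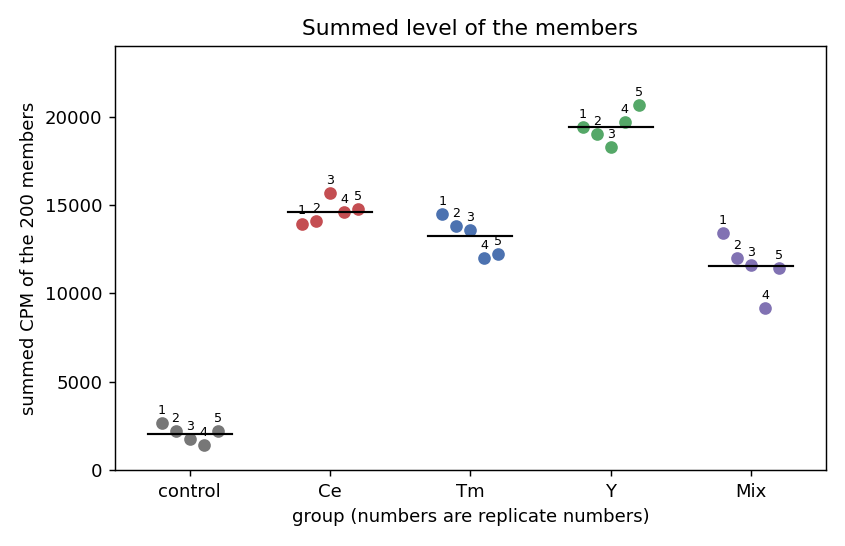
The vertical axis gives the summed CPM of the 200 genes for each library, with replicate numbers beside the points and the mean of each group of 5 as a line. The 5 control libraries lie between 1423 and 2660 CPM, the Y libraries between 18277 and 20659, and Mix library 4 is the lowest of the exposed libraries at 9169.

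The genes with the largest smallest D were led by Cre12g503850. Its control libraries 1 to 5 held 10.1, 9.04, 6.34, 4.37 and 10.2 CPM. The Ce libraries held 255, 259, 289, 282 and 312 CPM and the Tm libraries 248, 234, 231, 197 and 192 CPM. The Y libraries held 434, 408, 369, 430.3 and 479.6 CPM and the Mix libraries 186, 154, 133, 94.3 and 155 CPM. No 2 groups overlapped, and the order was Y, Ce, Tm, Mix and control. Its D was 5.64 in Y, 5.04 in Ce, 4.70 in Tm and 4.09 in Mix. The exposures differed among themselves in this gene, with Mix below Y (log2 difference -1.55 ± 0.16, edgeR adjusted p = 3.55e-08) and below Tm by a smaller step (log2 difference -0.61 ± 0.16, edgeR adjusted p = 0.0485).

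Cre12g524200 followed from a lower level. It held 2.29, 0.6645, 0.773, 1.07 and 1.36 CPM in the controls, 117 counts in all. The Y libraries held 81.0, 78.8, 74.2, 91.2 and 96.6 CPM and the Mix libraries 29.7, 32.7, 24.35, 22.1 and 27.0 CPM, with Ce at 37.6 ± 5.94 and Tm at 41.8 ± 5.09 CPM. Its Y libraries lay above all others, and the Ce libraries overlapped with those of Tm and of Mix. Y was higher than Ce (log2 difference -1.17 ± 0.16, edgeR adjusted p = 2.96e-07 for Ce minus Y) and higher than Tm (log2 difference -1.01 ± 0.16, edgeR adjusted p = 8.14e-05 for Tm minus Y).

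Cre07g323500, Cre03g170350, Cre12g503900 and Cre14g620400 had the same outline, with means in the control of 4.43, 6.46, 1.98 and 3.24 CPM, in Y of 211, 327, 59.96 and 93.97 CPM, and in Mix of 68.3, 93.1, 24.8 and 36.6 CPM. Cre10g421500 differed in that Ce was lowest. Its Ce libraries held 21.0, 19.3, 20.4, 15.5 and 19.6 CPM and its Mix libraries 37.6, 32.8, 34.2, 27.9 and 36.9 CPM, without overlap (log2 difference 0.82 ± 0.11, edgeR adjusted p = 1.23e-07 for Mix minus Ce). In 7 of these first 8 genes Y was called above each of the other exposures (edgeR adjusted p under 0.05), and in 3 of them by library totals alone. The other, Cre06g302050, was among the most abundant genes of the list and missed the threshold in the test over all exposures (edgeR adjusted p = 0.105) and was called in no pair. Under several other settings, given further on, it was called.

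**Figure D3:**
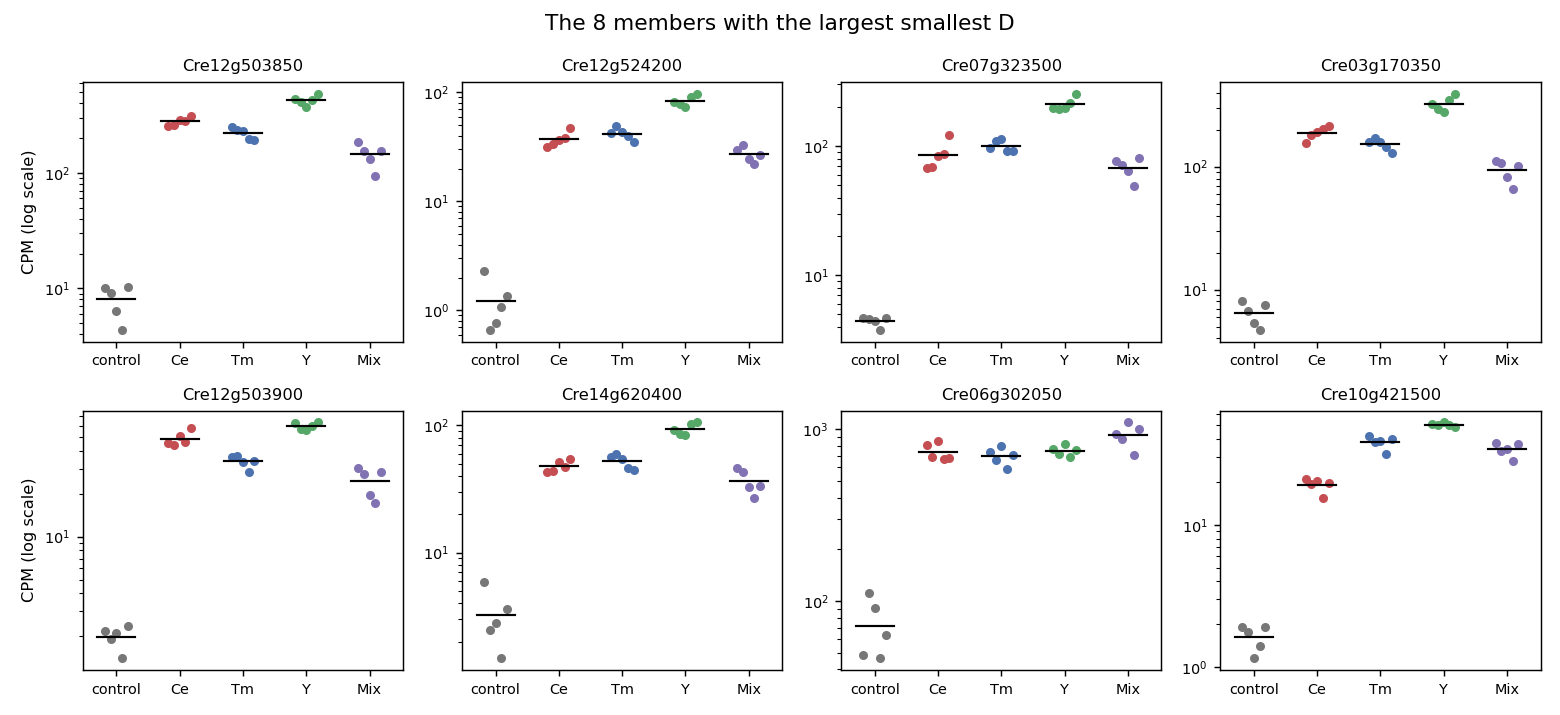
Each panel is 1 of the 8 genes with the largest smallest D; points are the CPM of single libraries on a log axis and lines the means of the 5 libraries of a group. Y is highest in all panels but that of Cre06g302050, whose Mix mean is 922 CPM against 749 in Y.

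The rule used the mean of each exposure but not the differences between exposures. These were tested with edgeR's quasi-likelihood test over all 12796 transcripts, with genes called at an adjusted p under 0.05. A gene not raised over the control in some exposure could not enter the list, so the shares below describe genes already required to be raised in all 4. The floor of 5 CPM could be passed through 1 exposure alone. Cre12g558050, named as an example, had 5.23 CPM in Y, 3.68 in Ce, 3.40 in Tm and 2.88 in Mix. Such genes were chosen in part for being high in that exposure. All tested transcripts had no such floor, and how far this moved the shares was not tested. Some difference between exposures was called in 180 of the 200 genes, against 86.2% of all tested transcripts, a share near the background. Between most pairs of exposures the calls went mainly in 1 direction.

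Y exceeded Tm in 125 genes (62.5%), against 11.2% of all transcripts, and Tm exceeded Y in 2, against 9.6%. In 30 of the 125 (15.0% of the 200 genes) the difference was at least 2-fold, against 2.4% of all transcripts. The median log2 difference of Tm minus Y was -0.56 in the 200 genes and -0.04 over all transcripts. Y exceeded Ce in 125 genes, against 33.9%, and Ce exceeded Y in 7, against 39.9%, with medians of -0.54 and 0.12 for Ce minus Y. Mix was lower than Y in 154 genes (77.0%), against 19.2%, and higher in 4, against 16.5%. In 71 of the 154 (35.5% of the 200 genes) the difference was at least 2-fold, against 5.4% of all transcripts, and the median of Mix minus Y was -0.79, against -0.05. Y was called above each of the other 3 exposures in 84 genes, against 4.19% of all transcripts, and above both Tm and Mix in 124, against 10.2%. By library totals alone Y was above each of the others in 33 genes and above both Tm and Mix in 104. With library totals in place of the scaling factors, the split for Ce against Y turned from 7 higher and 125 lower to 38 higher and 50 lower.

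Fewest genes were called between Mix and Tm. Mix was lower than Tm in 18 genes (9.0%), against 0.914% of all transcripts, and higher in 1, against 0.203%. The median difference of Mix minus Tm was -0.25, against 0.00. The count of 18 at the adjusted threshold changed with single libraries. Leaving out Tm library 2, here and elsewhere, also changed the reference of the scaling. It was 10 without Mix library 2, 5 without Mix library 3, 5 without Mix library 4, 8 without Tm library 1, 8 without Tm library 2 and 5 without Tm library 3. With the replicate number as a block it was 30, and with DESeq2 it was 29. Library totals alone gave 9, and scaling to control library 1 gave 10.

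Ce and Tm differed in both directions. Ce was higher than Tm in 56 genes (28.0%), against 42.9% of all transcripts, and lower in 59 (29.5%), against 33.7%. The median of Ce minus Tm was -0.06 in the 200 genes and 0.20 over all transcripts. This split depended on the scaling, with 122 higher and 21 lower by library totals, 48 and 78 by the size factors of DESeq2, 48 and 80 by DESeq2 itself, and 38 and 82 if control library 1 was the reference. Mix was lower than Ce in 80 genes (40.0%), against 45.1%, and higher in 42, against 33.5%. These counts were 148 and 12 by library totals, 72 and 58 by the size factors of DESeq2, 74 and 61 by DESeq2 itself, and 57 and 64 if control library 1 was the reference. Library totals moved the median of Ce minus Tm over all transcripts from 0.16 to 0.67 and that of the 200 genes from -0.06 to 0.53 (log2 differences of group means). The 200 genes minus all transcripts came to -0.22 and -0.14.

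**Figure D4:**
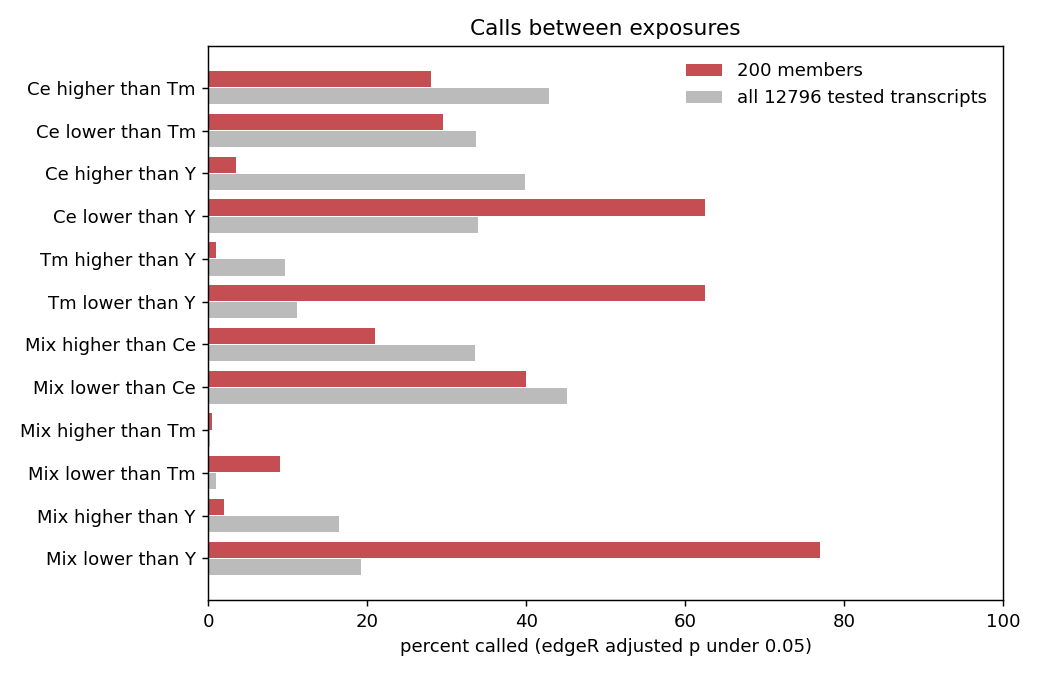
Bars give the percent of genes called in each direction between 2 exposures (edgeR adjusted p under 0.05), for the 200 genes and for all tested transcripts. Mix is lower than Y in 77.0% of the 200 and 19.2% of all, and Tm is lower than Y in 62.5% and 11.2%.

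Ordered by their means, 56 genes ran Y, Ce, Tm, Mix from high to low (28.0%), against 4.56% of all tested transcripts. A further 45 ran Y, Tm, Mix, Ce (22.5%, against 8.88%) and 31 ran Y, Tm, Ce, Mix (15.5%, against 1.98%). The order Ce, Y, Tm, Mix was that of 26 genes (13.0%, against 16.9%). Mix had the lowest mean of the exposures in 117 genes (27.8% of all transcripts) and Ce in 71 (37.5%), near its share of all transcripts. Y had the highest mean in 143 genes (20.2% of all) and Ce in 31 (47.8%). By library totals alone Ce was highest in 98 genes and Y in 87, and Mix was lowest in 160 and Ce in 21. Exposures next to each other in these orders need not differ beyond their spread. Mix was called below each of the other 3 exposures in 13 genes, against 0.414% of all transcripts, and 12 of these also had Y above each of the others. The exception was Cre10g448200, where Ce and Y overlapped. The count of 13 was 6 without Mix library 2, 1 without Mix library 3, 1 without Mix library 4, 8 without Mix library 5, 4 without Tm library 1, 4 without Tm library 2 and 1 without Tm library 3. It was 21 with the replicate block, 20 by DESeq2, 7 by library totals and 5 after scaling to control library 1. At an unadjusted p under 0.05 (edgeR) the count was 37 with all libraries. Without Mix library 3, Mix library 4 or Tm library 3 it was then 31, 28 or 32. Ce was called below each of the others in 39 genes, against 27.3%, in 11 by library totals and in 60 after scaling to control library 1.

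The number of genes in which Ce stood highest depended on the scaling. Ce was called above each of the other exposures in 4 genes, Cre10g448150, Cre12g556250, Cre02g115950 and Cre01g045100, against 34.2% of all transcripts. The last 2 are named because the count is small. By library totals alone the count was 35, against 52.6% of all transcripts. Cre10g448150 held 16.1, 17.4, 21.5, 14.2 and 20.6 CPM in Ce and 10.1, 8.94, 9.14, 9.54 and 11.9 CPM in Y. It held 4.73, 4.59, 4.89, 2.89 and 4.21 CPM in Tm and 3.26, 2.32, 1.95, 2.12 and 3.695 CPM in Mix. The controls held 0.642, 0.2215, 0.619, 0.660 and 0.185 CPM, 40 counts in all. Ce was above Y and Y above Tm without overlap, while Tm and Mix overlapped. Ce was higher than Tm (log2 difference 2.07 ± 0.19, edgeR adjusted p = 3.33e-10) and Mix was lower than Ce (log2 difference -2.74 ± 0.20, edgeR adjusted p = 3.91e-12), the widest gap between Mix and Ce in the list. Cre12g556250 was at 114 ± 10.1 CPM in Ce, 65.7 ± 3.72 in Y and 39.0 ± 6.81 in Tm, higher in Ce than in Y (log2 difference 0.79 ± 0.27, edgeR adjusted p = 0.0092).

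Other genes had their lowest mean among the exposures in Ce, in some cases far below only part of the other exposures. Cre01g008200 held 5.24, 2.99, 3.28, 2.11 and 6.37 CPM in Ce and 14.1, 14.4, 8.585, 9.29 and 5.64 CPM in Mix. It held 26.2, 19.2, 19.0, 26.3 and 15.8 CPM in Tm and 41.6, 24.9, 27.9, 31.5 and 24.6 CPM in Y. Ce and Mix overlapped, as did Tm and Y, and all Mix libraries were below all Tm libraries. Its difference between Ce and Y was the largest of any member in any pair of exposures (log2 difference -2.92 ± 0.32, edgeR adjusted p = 6.53e-09 for Ce minus Y), while Mix minus Tm missed the threshold (log2 difference -1.04 ± 0.30, edgeR adjusted p = 0.111) but passed it with the replicate block (-1.05 ± 0.28, edgeR adjusted p = 0.0474). Its controls were uneven, from 0.0402 CPM in library 1 to 1.65 CPM in library 4.

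In Cre17g697750 Ce alone stood apart from the other exposures. The Ce libraries held 6.71, 5.29, 6.775, 5.37 and 4.78 CPM and the Tm libraries 31.5, 29.4, 28.6, 32.35 and 24.7 CPM. The Y and Mix libraries held 34.1, 29.0, 28.5, 25.9 and 22.8 CPM and 32.25, 36.1, 32.8, 32.9 and 20.8 CPM. Tm, Y and Mix overlapped with each other and none with Ce, which was below Tm (log2 difference -2.34 ± 0.20, edgeR adjusted p = 4.38e-11). Even so Ce lay above the controls, which held 0.201, 1.24, 0.387, 0.495 and 0.987 CPM. Cre02g080100 and the next gene, Cre02g080150, were also lowest in Ce. Cre02g080100 was at 5.805 ± 0.6085 CPM in Ce and 18.4 ± 2.395 in Mix (log2 difference 1.66 ± 0.17, edgeR adjusted p = 1.3e-09).

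Some genes set Y apart. In g12024 the Y libraries held 12.3, 10.96, 12.7, 11.9 and 16.2 CPM and the Ce libraries 7.26, 6.79, 9.97, 7.81 and 6.60 CPM. The Tm libraries held 5.26, 3.94, 5.52, 3.105 and 3.85 CPM and the Mix libraries 4.29, 2.27, 2.07, 2.43 and 2.90 CPM. Y lay above Ce and Ce above Tm and Mix, which overlapped. Tm was below Y (log2 difference -1.55 ± 0.18, edgeR adjusted p = 2.68e-06), as was Mix (log2 difference -2.20 ± 0.19, edgeR adjusted p = 2.04e-09). Cre03g185750 had 19.1 ± 2.47 CPM in Y, 6.76 ± 0.714 in Ce, 7.11 ± 0.975 in Tm and 4.42 ± 1.05 in Mix. Here too Tm lay below Y by a wide margin (log2 difference -1.42 ± 0.17, edgeR adjusted p = 2.79e-06). The control level of this gene rests on 19 counts in 5 libraries.

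Y was the lowest exposure in Cre03g173700, the 1 gene called below each of the others there, against 3.52% of all transcripts. With edgeR this call was lost without Ce library 2, 4 or 5, without Y library 1, 2 or 5, without the filter on low counts and after scaling to control library 1, and DESeq2 made it with all libraries. At an unadjusted p under 0.05 the count stayed at 0 without Ce library 5, without Y library 5 and after that scaling, and was 1 in the other cases. Its Y libraries held 5.18, 5.35, 5.51, 5.53 and 4.94 CPM, the Tm libraries 8.09, 8.21, 7.26, 5.705 and 8.79 CPM and the Mix libraries 9.43, 8.77, 9.07, 6.81 and 7.94 CPM. Y did not overlap with Tm or Mix, and Mix was higher than Y (log2 difference 0.66 ± 0.15, edgeR adjusted p = 0.000851). The other 3 genes with Mix above Y were Cre13g584900 (log2 difference 0.41 ± 0.14, edgeR adjusted p = 0.0238), Cre02g080150 (log2 difference 0.36 ± 0.12, edgeR adjusted p = 0.0194) and, named because the count is small, Cre12g495350 with means of 28.0 CPM in Mix and 21.8 in Y. For Cre13g584900 the difference did not pass the test with library totals alone (0.35, edgeR adjusted p = 0.147).

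Among genes called between Mix and Tm, the widest gaps were those of Cre07g323450 and Cre08g385750. Cre08g385750 held 4.12, 4.385, 4.14, 3.355 and 3.40 CPM in Mix and 8.38, 7.73, 7.12, 7.005 and 9.03 CPM in Tm. Its Ce libraries held 4.155, 3.725, 4.21, 4.25 and 3.20 CPM and its Y libraries 5.75, 9.34, 7.505, 7.29 and 8.04 CPM. Mix overlapped with Ce and Tm with Y, and the 2 pairs did not overlap. Mix was below Tm (log2 difference -1.02 ± 0.14, edgeR adjusted p = 4.85e-05). The 1 gene with Mix above Tm was Cre17g731800, at 103 ± 11.3 CPM in Mix and 74.4 ± 6.87 in Tm (log2 difference 0.47 ± 0.10, edgeR adjusted p = 0.011), which was lowest in Ce with 63.8 ± 6.575 CPM.

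The most abundant of the 200 genes, by CPM not corrected for length, did not share 1 order of exposures. Cre02g080150 led them, with 1221, 1128, 1145, 1266 and 1177 CPM in Tm and 1145, 1185, 1236, 1139 and 1075 CPM in Mix. The Y libraries held 965.5, 859, 870.1, 876 and 925 CPM, the Ce libraries 396, 349, 422, 372 and 350.2 CPM and the controls 51.8, 105, 79.35, 64.9 and 57.35 CPM. Tm and Mix overlapped and lay above Y, and Y lay above Ce. It was 1 of the 2 genes with Tm above Y (log2 difference 0.40 ± 0.12, edgeR adjusted p = 0.018), beside Cre03g173700.

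Cre02g088200 and g1475 were high in Ce and Y instead. Cre02g088200 was at 904.5 ± 56.9 CPM in Ce and 860.2 ± 51.3 in Y, at 501 ± 59.8 in Tm and 387 ± 90.6 in Mix, and at 108 ± 52.1 in the control. For g1475 these means were 834 ± 61.2, 720.1 ± 82.8, 372.5 ± 49.5, 278 ± 63.5 and 43.4 ± 20.3 CPM. In both genes Ce and Y overlapped and lay above Tm and Mix. Ce was above Tm in g1475 (log2 difference 1.16 ± 0.21, edgeR adjusted p = 1.22e-05) and in Cre02g088200 (log2 difference 0.85 ± 0.21, edgeR adjusted p = 0.000516).

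Cre10g464200, also abundant, separated all 5 groups. The Y libraries held 856, 780.2, 742, 886 and 972.5 CPM and the Ce libraries 495, 514, 527, 531 and 693 CPM. The Tm libraries held 469.8, 471, 467, 418 and 377 CPM and the Mix libraries 359.6, 358, 293, 229 and 314 CPM. Each group lay wholly above the next in this order, and the controls were at 70.8 ± 9.875 CPM. Mix was below Tm (log2 difference -0.50 ± 0.12, edgeR adjusted p = 0.029).

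In 20 of the 200 genes the test over all 4 exposures missed the threshold, and in 17 of these no pair of exposures was called either. Taken as a share of the 200 genes, these 17 are near the background of 9.46% of all transcripts. The count of 17 was 10 without control library 4, 11 without control library 1, 11 by DESeq2 and 10 by library totals. The leading one, Cre06g302050, held 48.5, 111, 91.0, 46.6 and 63.1 CPM in the controls. Its Ce libraries held 811, 691, 850.3, 667 and 678 CPM and its Mix libraries 935, 877, 1096, 704 and 1001 CPM, with 699 ± 79.2 CPM in Tm and 749 ± 49.6 in Y. All exposed groups overlapped. Its widest pairwise difference was that of Mix minus Tm (log2 difference 0.40 ± 0.16, edgeR adjusted p = 0.381). This gene was nevertheless called, over all exposures or in a pair, by library totals, by DESeq2 and by its size factors. So it was with control library 1 as the reference and with the replicate block (Mix minus Ce 0.31 ± 0.14, edgeR adjusted p = 0.0392). Leaving out control library 2, control library 4 or Mix library 4 also gave a call. The others leading this group were g6354, Cre16g678600 and Cre02g099950, with edgeR adjusted p = 0.406, 0.179 and 0.733 for any difference. Cre02g099950 was at 37.7 ± 5.30 CPM in Tm, 36.6 ± 2.80 in Ce, 36.3 ± 1.48 in Y and 33.9 ± 6.10 in Mix, with pairwise log2 differences from -0.16 ± 0.14 to 0.06 ± 0.14. A missed threshold does not show that the exposures act alike on these genes.

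Members were often next to each other in the gene order of the reference. Of the 155 matched genes, 26 (16.8%) had another member as the next gene, in 12 groups of 2 or 3, while 2.38% of the 8769 matched tested transcripts lay next to a member. The rule used no position. The reference spans of such neighbours overlapped in 0 cases, and 1 of the 155 overlapped some other gene. The use of strand in the counting and the likeness of neighbouring copies are not known here, so reads shared between near-identical neighbours cannot be told apart.

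The first group was Cre12g503900, Cre12g503850 and Cre12g503800. Y had the highest and Mix the lowest mean of the exposures in all 3, and their control means were 1.98, 8.02 and 14.53 CPM. Cre12g503800 held 342, 283, 291, 302 and 279 CPM in Y and 135, 111, 97.7, 76.4 and 94.5 CPM in Mix (log2 difference -1.54 ± 0.14, edgeR adjusted p = 5.61e-09). In the second group, Cre07g323400, Cre07g323450 and Cre07g323500, Y also had the highest mean. Cre07g323450 held 30.8, 23.6, 24.4, 25.15 and 28.0 CPM in Y and 6.63, 7.17, 4.93, 4.49 and 4.195 CPM in Mix. Its Tm libraries held 12.6, 10.9, 12.4, 13.1 and 9.03 CPM and its Ce libraries 4.55, 4.60, 3.745, 3.00 and 8.22 CPM. Ce and Mix overlapped, below Tm and far below Y, and Mix was lower than Y (log2 difference -2.27 ± 0.21, edgeR adjusted p = 6.72e-09) and than Tm (log2 difference -1.08 ± 0.21, edgeR adjusted p = 0.00382). Cre07g323400 was at 13.8 ± 2.32 CPM in Y and 3.35 ± 0.739 in Mix, from 18 control counts in all.

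The pairs Cre03g170350 with Cre03g170400 and Cre12g500100 with Cre12g500050 also had Y highest and Mix lowest. Mix was below Y in Cre03g170350 (log2 difference -1.81 ± 0.14, edgeR adjusted p = 5.46e-10) and in Cre03g170400 (log2 difference -1.48 ± 0.18, edgeR adjusted p = 3.61e-07). In Cre12g500100 it was below Y too (log2 difference -1.56 ± 0.14, edgeR adjusted p = 5.1e-09), and in Cre12g500050 as well (log2 difference -1.98 ± 0.19, edgeR adjusted p = 1.44e-08). The pair Cre10g448150 and Cre10g448200 was higher in Ce than in Tm. Cre10g448200 held 219, 241, 267, 259 and 290.1 CPM in Ce and 204, 224, 195, 242 and 329 CPM in Y. It held 86.9, 102, 109.7, 78.9 and 101.5 CPM in Tm and 67.1, 57.2, 44.5, 34.5 and 83.4 CPM in Mix. Ce and Y overlapped, unlike in Cre10g448150, and Mix was far below Ce (log2 difference -2.15 ± 0.17, edgeR adjusted p = 1.12e-11).

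**Figure D5:**
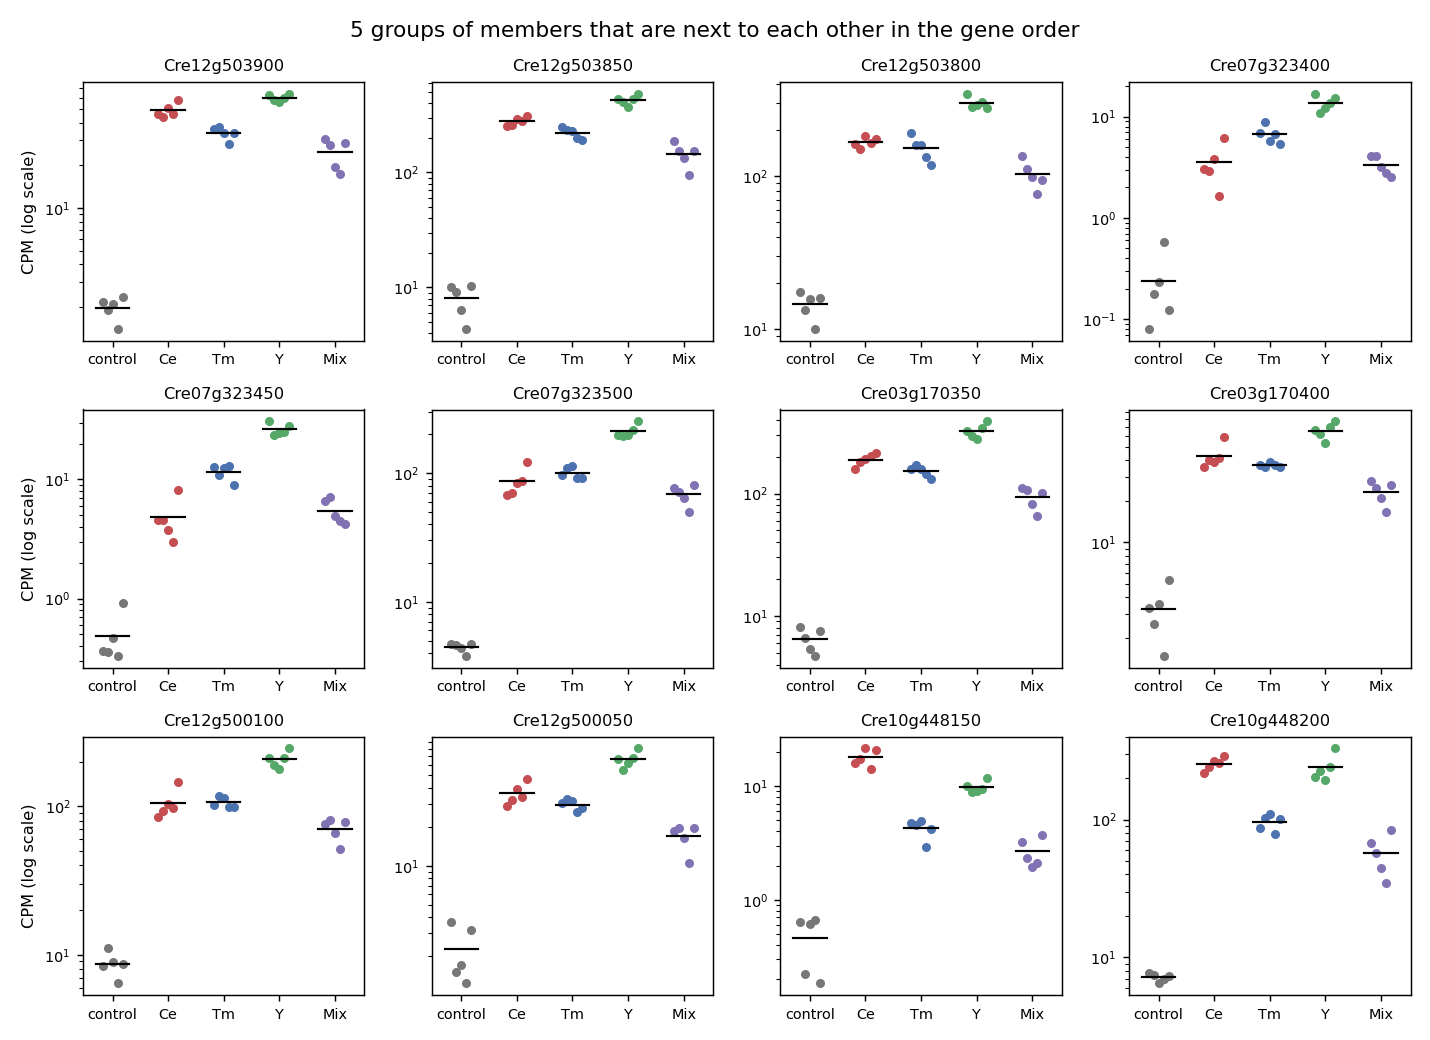
Panels show the 12 genes of the 5 leading groups of neighbours; points are the CPM of single libraries on a log axis and lines the means of 5 libraries. Y is highest in 10 panels, and Ce is highest for Cre10g448150 and Cre10g448200.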

How the data were processed

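The authors deposited raw counts of reads for each transcript and library. SAMtools 1.2, TopHat2 2.0.14 and Trim Galore 0.3.7 come from the submitters' processing notes; the build, annotation, counter and strand setting were not given in the sources used here. In 34 cells the text PAC: was removed and the digits kept; no member had such a cell. CPM were computed with TMM factors (reference Tm library 2). Tests were edgeR 4.0.16 quasi-likelihood tests in R 4.3.3, with robust estimates and filterByExpr, in 1 fit of 25 libraries, adjusted by Benjamini-Hochberg over 12796 transcripts. DESeq2 1.42.0 was an alternative. Values after ± are SDs over 5 libraries for CPM and standard errors for log2 differences. These standard errors were worked back from the test, as the size of the difference over the square root of its F value. Libraries of a group differed beyond sampling noise (chi-square over degrees of freedom of at least 5.45).

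The members and lists were chosen with earlier results of these data known. Named are the 8 members with the largest smallest D, those at the limit, the 5 most abundant and 5 groups of neighbours. Also named are the 2 largest differences each way per pair of exposures among called members of at least 1 CPM. The last are the 4 leading members that missed the threshold in the test over all exposures. Gene lists and sequence features were not used here, since no symbols or sequences were at hand. For all 5 replicate numbers, deviations from group means correlated at over 0.1 in Ce with Tm (0.11 to 0.304). The same held for Ce with Y (0.168 to 0.265), Tm with Mix (0.292 to 0.584) and control with Mix (0.124 to 0.658). In the other pairs of groups some of the 5 values were under 0.1. With the control they ran from -0.05 to 0.101 for Ce, 0 to 0.456 for Tm and -0.148 to 0.166 for Y. For Ce with Mix they ran from 0.032 to 0.245. They were 0.091 to 0.324 for Tm with Y and 0.006 to 0.335 for Y with Mix. Correlations between unlike replicate numbers are not given here. A pairing by replicate number was thus read from the data alone, and only for part of the pairs of groups. The calls and p-values given do not use it, except where the replicate block is named. With the block, Y was above each of the other exposures in 93 genes and Mix below each in 21, and Mix was below Tm in 30. Scaling, filter, test, block, damaged cells and each library were varied. The code was tested on simulated data.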

Additional observations from a re-analysis of the deposited data

Results flagged for a closer look

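Among 185 groups of 5 libraries (36 named genes and the summed level, in 5 groups each), 9 held a library far from the other 4, where chance gives about 1 in 20. Ce library 5 was highest in Cre10g464200, with 692.6 CPM against 494.6 to 530.8 in the other Ce libraries, and in Cre03g170400, with 59.03 CPM against 35.23 to 41.42. Control library 5 was highest in Cre07g323450, with 0.925 CPM against 0.330 to 0.464, and in Cre08g385750, with 0.987 CPM against 0.683 to 0.753. Mix library 4 was lowest in Cre12g5345001, with 1.60 CPM against 3.23 to 3.695, and Mix library 5 in Cre17g697750, with 20.8 CPM against 32.25 to 36.1. Tm library 5 was highest in g6354, with 14.6 CPM against 9.78 to 10.96. Control library 4 was lowest in g12024, with 0.165 CPM against 0.370 to 0.443, and Y library 3 in Cre16g678600, with 30.9 CPM against 33.4 to 34.1.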

How the results depend on the processing

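The rule kept 145 of the 200 genes with library totals alone, 156 with 2 CPM added, 178 with a floor of 10 CPM, 181 with control library 1 as the scaling reference, 190 with the size factors of DESeq2, 196 with a floor of 1 CPM, and 180 to 200 when single libraries were left out. With library totals alone, members higher and lower were 122 and 21 for Ce against Tm, 38 and 50 for Ce against Y, and 12 and 148 for Mix against Ce, 9 were lower in Mix than in Tm and 2 higher in Mix than in Y. With control library 1 as the scaling reference 64 were higher in Mix than in Ce, 10 lower in Mix than in Tm, 7 higher in Mix than in Y and 4 higher in Tm than in Y. DESeq2 gave 29 lower in Mix than in Tm, 7 higher in Mix than in Y and 4 higher in Tm than in Y, and its size factors in edgeR also gave 4 for the last. The replicate block gave 30 lower in Mix than in Tm and 21 with Mix below each of the others, and moved no other count by over 1.5 times; of 216 named differences 11 were called only with it and 0 only without it. Members with an exposure set apart from each of the others, counted under all settings after the data were seen, were 35 for Ce above, 11 for Ce below, 33 for Y above and 7 for Mix below by library totals, 60 for Ce below, 5 for Mix below and 0 for Y below with control library 1 as the reference, 20 for Mix below by DESeq2 and 0 for Y below without the filter. Genes called neither overall nor in a pair were 11 by DESeq2 and 10 by library totals, and 10 to 20 without single libraries, which also gave 1 to 18 for Mix below each and 0 to 1 for Y below each. The cause of the shifts was not tested, except that library totals omit the factors that are high in Ce. Leaving out single libraries gave 5 to 26 members lower in Mix than in Tm, 2 to 4 higher in Mix than in Y (2 without Mix library 2 and 2 without Mix library 3), and 0 to 1 higher in Mix than in Tm; the edgeR count of 0, without Mix library 3, was 1 at an unadjusted p under 0.05, and DESeq2 on all libraries gave 1. Without single libraries, the counts of Y above Tm, Ce and Mix ran from 102 to 139, 119 to 133 and 140 to 158. The 23 differences named as the largest called ones each way per pair of exposures were also taken under the other settings with all libraries. Of their 161 values 160 kept their direction and call, and 1, that of Cre13g584900 given above, kept its direction only. These 23 were chosen for their size. Other differences given, such as Mix below Tm in Cre12g503850, were not among them, and fits without single libraries were not included.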
